A study of Rattus norvegicus with 29 samples.

Results

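The sensory miRNA cluster of miR-183, miR-96 and miR-182 was described in plasma of 29 adult male Sprague-Dawley rats, drawn at 48 h after surgery at 3 study sites. The cluster was defined by name: every miRNA in the count table with the exact stem miR-183, miR-96 or miR-182, from either arm of the hairpin. This gave 5 of the 754 miRNAs in the table: rno-miR-183-5p, rno-miR-183-3p, rno-miR-96-5p, rno-miR-96-3p and rno-miR-182, written below without the prefix. Of the rats, 12 were from UEF (University of Eastern Finland), 8 from Monash University and 9 from UCLA. The 10 sham-operated experimental controls had anesthesia and surgery without impact (4 at UEF, 3 at Monash and 3 at UCLA). The 19 injured rats had traumatic brain injury (TBI) from lateral fluid percussion, a pressure pulse delivered through an opening in the skull. They are named by the later outcome on video-EEG: TBIN for no epilepsy (10 rats; 4, 3 and 3 by site in the same order) and TBIE for epilepsy (9 rats; 4, 2 and 3). Each library was 1 rat, so p-values rest on the spread between animals.

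MicroRNAs are short RNAs cut from hairpin precursors. They lower the translation and stability of messenger RNAs that pair with their seed, the bases near the 5′ end. The 3 hairpins of this cluster are made from 1 primary transcript. The cluster is best known from sensory organs: photoreceptors, hair cells of the inner ear and olfactory neurons carry it at high levels, and variants in the miR-96 seed cause progressive hearing loss. It is also made in neuroendocrine cells and in many epithelia. In plasma, miRNAs circulate in vesicles and protein complexes released from many tissues and blood cells, so the level of a miRNA does not name its source.

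The mature sequences show how close the members are, and are given 5′ to 3′ with bases 2 to 8, the seed, in capitals:

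miR-183-5p: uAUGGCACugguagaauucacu

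miR-96-5p: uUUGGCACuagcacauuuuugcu

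miR-182: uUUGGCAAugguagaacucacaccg

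miR-183-3p: uGAAUUACcgaagggccauaa

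miR-96-3p: cAAUCAUGugcagugccaauau

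All 5 were matched by name to RefSeq entries on assembly GRCr8, as were 674 of the 754 miRNAs in the table. Counted position by position from the 5′ end, miR-183-5p and miR-182 had 18 of 22 bases in common, and miR-183-5p and miR-96-5p had 13 of 22. In the seed, miR-183-5p shared 6 of 7 bases with miR-96-5p and 5 of 7 with miR-182. miR-96-5p and miR-182 shared bases 2 to 7 and differed at base 8. No pair of members shared the whole seed, and no other matched miRNA of the table shared bases 2 to 7 with a member. The arms opposite, miR-183-3p and miR-96-3p, have seeds of their own.

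The hairpins lie on the minus strand of chromosome 4 in GRCr8, in the order Mir183, Mir96, Mir182 along the transcript. They are printed with the mature arms in capitals, to show which members come from 1 precursor:

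Mir183 (chr4:59756044-59756153): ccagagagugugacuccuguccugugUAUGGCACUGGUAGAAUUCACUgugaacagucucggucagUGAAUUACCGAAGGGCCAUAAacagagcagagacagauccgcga

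Mir96 (chr4:59755841-59755946): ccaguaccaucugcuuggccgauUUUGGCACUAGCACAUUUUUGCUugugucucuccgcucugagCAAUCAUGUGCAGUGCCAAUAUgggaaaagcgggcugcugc

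Mir182 (chr4:59752246-59752307): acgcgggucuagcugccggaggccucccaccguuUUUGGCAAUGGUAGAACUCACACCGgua

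The Mir182 entry is printed as RefSeq gives it, 62 bases long with miR-182 at bases 35 to 59. Only miR-182 is marked in it, and which arm it comes from cannot be read from this entry. The gap between Mir183 and Mir96 was 97 bases and that between Mir96 and Mir182 was 3533 bases, within a span of 3908 bases. The nearest protein-coding genes on either side were Nrf1 and Ube2h. The reads themselves were aligned to Rnor_6.0, and the count table gives no positions.

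Each library held between 1162307 and 5223469 miRNA counts (median 2713557). Levels are given as CPM, counts per 1000000 after scaling the totals by trimmed mean of M values (TMM). The TMM factor ran from 0.333 in sham rat 3 of UEF, in which liver miRNAs took 58.0% of all counts, to 1.76 in TBIE rat 4 of UEF. The low factor raises every CPM of that sham rat, and it set the highest sham CPM of miR-183-5p, miR-182 and miR-96-5p. Values on total counts, without TMM, are given beside those results.

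The members differed widely in level. miR-183-5p had a mean of 545 CPM (SD 417, n = 29), rank 86 of the 751 miRNAs tested, and miR-182 had 349 CPM (SD 244), rank 106. miR-183-3p (mean 13.2 CPM) and miR-96-5p (mean 12.3 CPM) ranked 618 and 629. miR-96-3p was at 0 in 19 of the 29 rats and never above 20 counts. Over all rats, miR-183-5p made up 59.3% of the members' counts, miR-182 37.7%, miR-183-3p 1.41%, miR-96-5p 1.37% and miR-96-3p 0.149%. Together they made up 0.0906% of all miRNA counts. Counts were compared without a correction for how well each sequence is captured in a library.

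The first comparison asked how the cluster differed between injured and sham-operated rats. miR-183-5p, the most abundant member, was at 119 to 659 CPM in the sham rats (median 246, mean 308 ± 165 SD, n = 10) and at 177 to 1763 CPM in the TBI rats (median 441, mean 669.7 ± 458 SD, n = 19). Of the TBI rats, 17 of 19 lay above the sham median and 7 of 19 above every sham rat, so the groups overlapped. The fitted difference was 1.11 on the log2 scale (SE 0.36, 95% CI 0.38 to 1.83), with an adjusted p of 0.123 in edgeR over all miRNAs tested, which did not pass the 0.05 threshold. It had rank 25 by p and rank 10 by size among 751. In plasma, more cells releasing a miRNA and more of it released per cell cannot be told apart.

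By site, the sham rats of UEF had 392, 238, 659 and 119 CPM of miR-183-5p. The TBIN rats there had 398, 1763, 229.8 and 728 CPM, and the TBIE rats 370.0, 656, 416 and 177 CPM. The highest UEF sham value was that of the rat with the low TMM factor, and on total counts it had 219.6 CPM. At Monash the sham rats had 217, 264 and 209 CPM, the TBIN rats 413, 1496 and 289.9 CPM and the TBIE rats 1401 and 273 CPM. All 5 injured Monash rats lay above all 3 sham rats. At UCLA the sham rats had 218, 254 and 514 CPM, the TBIN rats 707, 645 and 372 CPM and the TBIE rats 993, 956 and 441 CPM. There, 4 of the 6 injured rats lay above every sham rat. On total counts, the number of injured rats above every sham rat of their own site was 5 of 8 in place of 2 at UEF, 4 of 5 in place of 5 at Monash and 3 of 6 in place of 4 at UCLA, and over all sites it was 6 of 19 in place of 7.

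**Figure D1:**
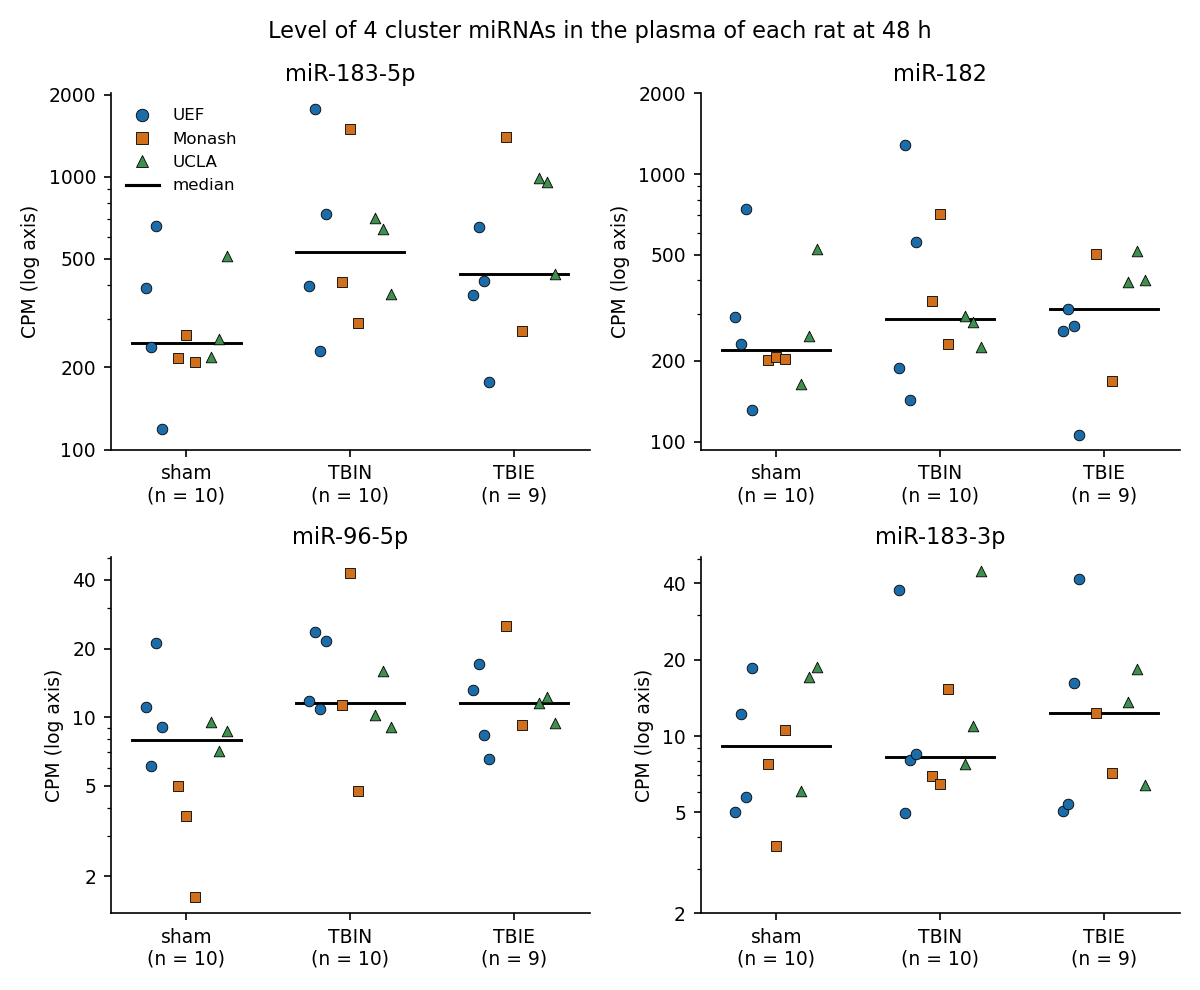
Each point is the CPM of 1 rat on a log axis, for miR-183-5p, miR-182, miR-96-5p and miR-183-3p in sham, TBIN and TBIE rats. Symbols give the site and lines the group median. For miR-183-5p both injured groups had a higher median (529 and 441 CPM) than sham (246 CPM), with overlap, while the highest miR-183-3p values (44.9, 41.6 and 37.8 CPM) were in rats without a high miR-183-5p.

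miR-182, cut from the hairpin farthest along the transcript, was at 131 to 739 CPM in sham rats (median 219.7, mean 294 ± 189.7 SD) and at 106 to 1281 CPM in TBI rats (median 295, mean 378 ± 268 SD). The groups overlapped nearly in full, with 1 TBI rat above every sham rat and 1 below. On total counts sham rat 3 of UEF had 246 in place of 739 CPM, and 2 TBI rats lay above every sham rat and 0 below. The log2 difference was 0.35 (SE 0.33, 95% CI -0.32 to 1.02, adjusted p = 0.801). The 3 Monash sham rats were close together, at 202, 208 and 204 CPM, and the 5 injured rats there had 335, 708, 232, 504 and 168 CPM. Without sham rat 3 of UEF the difference was 0.60 (SE 0.31, adjusted p = 0.520), more than 1.5 times as large and still short of the threshold.

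miR-96-5p, whose seed is known for its part in hearing, was at 1.63 to 21.3 CPM in sham rats (median 7.92) and at 4.76 to 42.8 CPM in TBI rats (median 11.6). Of the 19 TBI rats, 17 lay above the sham median and 4 above every sham rat. On total counts sham rat 3 of UEF had 7.08 in place of 21.3 CPM, and 15 of the 19 TBI rats lay above the sham median and 12 above every sham rat. The log2 difference was 0.77 (SE 0.33, 95% CI 0.11 to 1.44), with an adjusted p of 0.293. The lowest sham CPM were those of the Monash sham rats, at 4.97, 3.69 and 1.63 CPM, from 9, 8 and 2 reads. The injured rats of Monash had 11.4, 42.8, 4.76, 25.2 and 9.22 CPM. Without the Monash rats the difference was 0.32 (SE 0.27, adjusted p = 0.629).

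miR-183-3p, the opposite arm of the Mir183 hairpin, was at 3.69 to 18.7 CPM in sham rats (median 9.15) and at 4.99 to 44.9 CPM in TBI rats (median 8.50). The means were 10.5 ± 5.82 (SD) and 14.6 ± 12.6 CPM, and 3 TBI rats lay above every sham rat. The log2 difference was 0.45 (SE 0.38, 95% CI -0.32 to 1.22, adjusted p = 0.784). The median was thus lower and the mean higher in TBI, with 3 rats at 37.8 CPM or more. miR-96-3p was above 0 in 3 of 10 sham rats (up to 18 counts) and in 7 of 19 TBI rats (up to 20 counts), and no fold is given. A count of 0 allowed up to 0.574 to 2.58 CPM by library, at 3 counts and on total counts without TMM.

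In this fit 0 of the 5 members passed the threshold, beside 9 of 751 miRNAs tested (1.2%). The count at an unadjusted p under 0.05 was 2 of the 5 members and 83 of all miRNAs. With DESeq2 and the same model, miR-183-5p passed, at a log2 difference of 1.07 (SE 0.34) and an adjusted p of 0.0446, as did 25 of 751 miRNAs (3.33%), so its call depended on the tool. In the edgeR fit its adjusted p ran from 0.0726 to 0.209 when single rats were left out.

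The design also split the injured rats by outcome, both groups being set against the same sham rats. miR-183-5p was at 229.8 to 1763 CPM in TBIN rats (median 529) and at 177 to 1401 CPM in TBIE rats (median 441). Its log2 difference from sham was 1.19 in TBIN (SE 0.39, adjusted p = 0.231) and 1.02 in TBIE (SE 0.40, adjusted p = 0.368). For miR-96-5p the values were 0.96 (SE 0.36, adjusted p = 0.293) and 0.59 (SE 0.37, adjusted p = 0.811). For miR-182 they were 0.54 (SE 0.37) and 0.16 (SE 0.38). The opposite arm, miR-183-3p, had 0.51 (SE 0.42) and 0.38 (SE 0.44). The TBIE value turned to -0.028 for miR-183-3p without TBIE rat 4 of UEF, and to -0.016 for miR-182 without TBIE rat 1 of Monash. No member passed the threshold in either comparison, beside 0.133% of all miRNAs for TBIN and 0.533% for TBIE.

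Rats with later epilepsy were then compared with injured rats without it. The log2 difference of TBIE from TBIN was -0.18 for miR-183-5p (95% CI -1.001 to 0.64), -0.38 for miR-182 (95% CI -1.18 to 0.42), -0.37 for miR-96-5p (95% CI -1.11 to 0.37) and -0.13 for miR-183-3p (95% CI -1.01 to 0.74). All had an adjusted p of 0.998. These intervals allow a 2-fold difference in 1 direction for each member. Of all 751 miRNAs, 0 passed in edgeR (0%), with 18 at an unadjusted p under 0.05, and 0 in DESeq2.

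Each library gives its own ratio of members, so a ratio of 2 counts needs no scaling of totals. It can still follow depth where 1 member rises and the other falls with depth, as did the arms of Mir183 (given below). The ratio of miR-182 to miR-183-5p was close to even in sham rats and lower after TBI. In the UEF sham rats it was 0.745, 0.974, 1.12 and 1.10 reads of miR-182 for each read of miR-183-5p. In the Monash sham rats it was 0.931, 0.787 and 0.977, and in the UCLA sham rats 0.755, 0.978 and 1.02.

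In the injured rats the same ratio was 0.472, 0.726, 0.622 and 0.762 (TBIN) and 0.698, 0.477, 0.649 and 0.596 (TBIE) at UEF. At Monash it was 0.812, 0.473 and 0.801 in TBIN and 0.360 and 0.617 in TBIE. At UCLA it was 0.417, 0.436 and 0.608 in TBIN and 0.399, 0.541 and 0.913 in TBIE. All 19 injured rats lay below the sham median, 15 of 19 lay below every sham rat, and 0 of 19 had as many reads of miR-182 as of miR-183-5p, against 3 of 10 sham rats. The 4 injured rats within the sham range were TBIN rat 4 of UEF, TBIN rats 1 and 3 of Monash and TBIE rat 3 of UCLA.

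On the log2 scale the mean ratio was -0.11 ± 0.21 (SD, n = 10) in the sham group and -0.79 ± 0.39 (SD, n = 19) in the TBI group, a difference of -0.68. A two-sided permutation test with 100000 resamples gave p = 4e-05, and 6e-04 after adjustment over the 15 ratio tests made (3 ratios in 5 comparisons). The counting error of 1 rat's log2 ratio was 0.0305 to 0.128, since no rat had fewer than 251 reads of miR-182 or 257 of miR-183-5p. Leaving out any 1 rat, the difference ran from -0.72 to -0.64 and the adjusted p from 0.00015 to 0.00162.

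**Figure D2:**
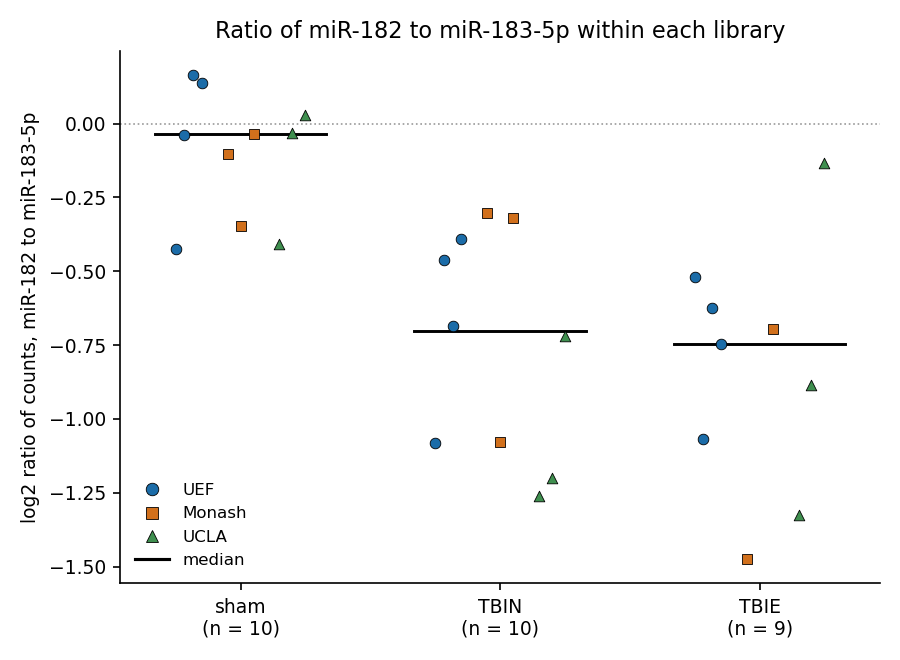
Each point is the log2 ratio of the counts of miR-182 and miR-183-5p in 1 rat, by condition, with the site as the symbol and the median as a line. The dotted line marks equal counts. The 10 sham rats lay between -0.42 and 0.17 and the 19 TBI rats between -1.47 and -0.13, with 15 of the TBI rats below every sham rat.

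The direction was the same at each site. At UEF the log2 ratio was 0.66 lower in 8 TBI rats than in 4 sham rats (difference -0.66, exact permutation test, p = 0.00404, 0.0364 adjusted over 9 within-site tests). At UCLA the difference was -0.78 for 6 TBI and 3 sham rats (exact p = 0.0357, adjusted 0.161). At Monash it was -0.61 for 5 TBI and 3 sham rats (exact p = 0.125, adjusted 0.257). TBIE and TBIN rats had mean log2 ratios of -0.83 and -0.75 (difference -0.08, exact p = 0.660, n = 9 and 10).

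The ratio has to be read against the other miRNAs of the same libraries, because a higher miR-183-5p lowers the ratio of every other miRNA to it. Of the 750 other miRNAs tested, 738 (98.4%) had a lower mean ratio to miR-183-5p in TBI, with a median difference of -0.98, and 291 (38.8%) passed an adjusted p of 0.05. The difference for miR-182, at -0.68, was thus smaller than the median one. Its spread was small: the SD of its log2 ratio to miR-183-5p within conditions was 0.34, the lowest of the 750, where the median was 1.11. Its permutation p had rank 1 of the 750, with an adjusted p of 0.015 over them. That of miR-96-5p had an SD of 0.67 (rank 7) and that of miR-183-3p an SD of 1.48 (rank 644).

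The ratio of miR-96-5p to miR-183-5p, low in every rat, had a mean log2 value of -5.26 ± 0.83 (SD) in sham and -5.41 ± 0.57 in TBI rats (difference -0.15, permutation p = 0.566). Its direction was not shared by the sites, at -0.39 in UEF, 0.69 in Monash and -0.67 in UCLA. None of these passed the threshold (exact permutation tests, adjusted p = 0.422, 0.257 and 0.257 with 4, 3 and 3 sham rats).

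The 2 arms of the Mir183 hairpin were also set against each other within libraries. miR-183-3p had 8 to 120 reads a rat, and no counting error was computed for this ratio. miR-183-5p outnumbered miR-183-3p in every rat, by 4.25 to 342 times. The median was 27.2 times in sham and 57.7 times in TBI rats. The mean log2 ratio was 4.88 ± 1.23 (SD) for the sham rats and 5.58 ± 1.59 for the injured rats, and the difference of 0.70 was within the spread (permutation p = 0.239, adjusted 0.894).

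The arms were high in different rats. TBIN rat 2 of UEF, with the highest miR-183-5p (1763 CPM, 5301 reads), had 15 reads of miR-183-3p. TBIE rat 4 of UEF, with 512 reads of miR-183-5p, had 120 of miR-183-3p, and TBIN rat 3 of UCLA had 945 and 114. The ratios of these 3 injured rats were 342, 4.25 and 8.26. Their libraries held 4669149, 1638451 and 2163966 miRNA counts, with TMM factors of 0.644, 1.76 and 1.17.

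Across the 29 rats, miR-183-5p, miR-182 and miR-96-5p rose and fell together. The Pearson correlation of log2 CPM was 0.88 between miR-183-5p and miR-182 (Spearman 0.90, permutation p = 1e-05 for each, the smallest 100000 resamples can give, 3e-05 adjusted over 6 pairs). Without the 2 rats farthest from the median it was 0.83. It was 0.92 within UEF, 0.96 within Monash and 0.72 within UCLA, and 0.96 among sham and 0.91 among TBI rats. On total counts without TMM it was 0.87.

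miR-96-5p followed both. Its Pearson correlation with miR-183-5p was 0.76 (Spearman 0.77, permutation p = 1e-05 for each, adjusted 3e-05), or 0.68 without the 2 farthest rats. With miR-182 it was 0.64 (Spearman 0.64, permutation p = 0.00019 and 0.00026, adjusted 0.00038 and 0.00052), or 0.58 without the 2 farthest rats. Site by site, the Pearson correlation with miR-182 came to 0.82 (UEF), 0.86 (Monash) and 0.19 (UCLA). For miR-183-5p the site values were 0.84 (UEF), 0.92 (Monash) and 0.66 (UCLA). Levels of miR-96-5p in the UCLA rats ran from 7.13 to 15.9 CPM. The cause of the lower value with miR-182 in these rats was not tested.

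miR-183-3p, with 8 to 120 reads a rat, did not follow the other arm of its own hairpin. Its Pearson correlation with miR-183-5p was -0.21 (Spearman -0.17, permutation p = 0.271 and 0.375), at -0.56 within UEF, 0.10 within Monash and 0.07 within UCLA. On total counts without TMM it was 0.06. With miR-182 it was -0.33 and with miR-96-5p -0.20, with adjusted p-values of 0.124 and 0.286.

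**Figure D3:**
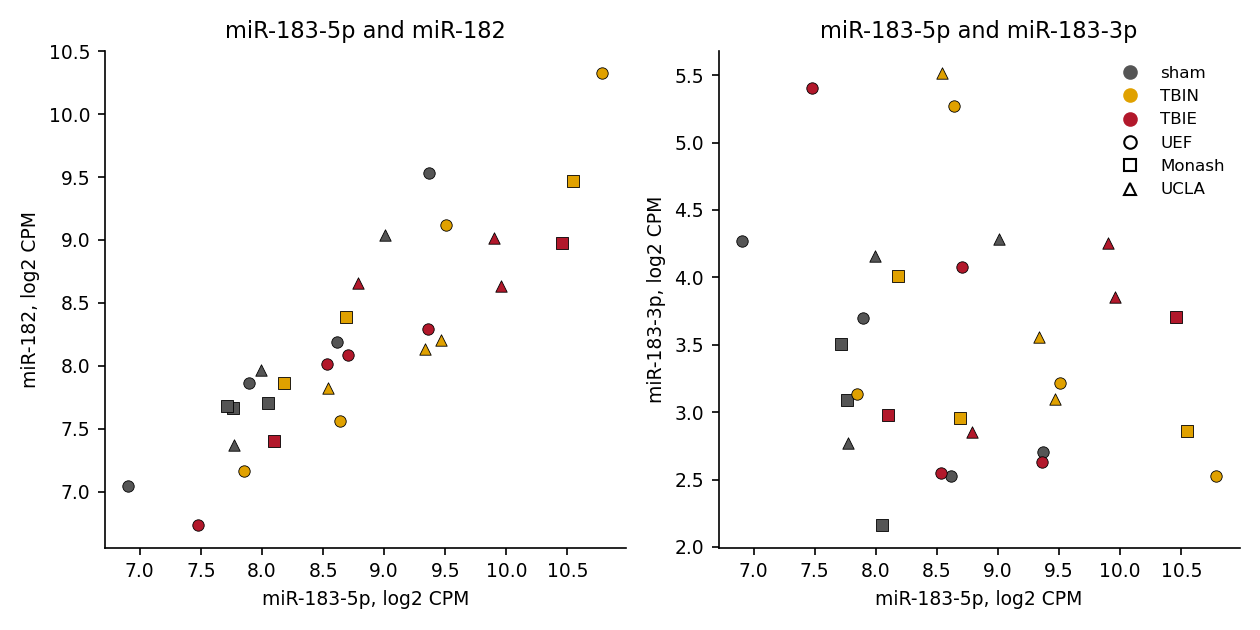
Each point is 1 rat, with log2 CPM of miR-183-5p on the horizontal axis and that of miR-182 (left) or miR-183-3p (right) on the vertical axis. Colors give the condition and symbols the site. miR-182 rose with miR-183-5p (Pearson 0.88, n = 29), with sham rats along the upper edge, and miR-183-3p did not (Pearson -0.21).

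The closeness of the members was then placed among all other miRNAs. Ranked by Spearman correlation with miR-183-5p over the 29 rats, miR-182 was rank 1 of 750 (0.90) and miR-96-5p rank 3 (0.77), where the median miRNA had -0.09. miR-183-3p was rank 473. For miR-182, miR-183-5p was rank 1 and miR-96-5p rank 10, and for miR-96-5p the other 2 were ranks 1 and 2. After site and condition were removed, miR-182 was rank 2 for miR-183-5p (Spearman 0.86) and miR-96-5p rank 6 (0.67). For miR-182, miR-183-5p was then rank 3 and miR-96-5p rank 29, and for miR-96-5p the other 2 kept ranks 1 and 2. All of these share libraries and scaling.

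The miRNAs most like miR-183-5p outside the cluster were miR-429 (Spearman 0.86), miR-181c-3p (0.71), miR-200a-3p (0.71), miR-421-3p (0.68) and miR-146b-5p (0.63). Those most like miR-182 were miR-429 (0.90), miR-200a-3p (0.79), miR-200b-3p (0.71), miR-141-3p (0.69) and miR-100-5p (0.68). miR-429, miR-200a, miR-200b and miR-141 belong to the miR-200 family, which marks epithelia. After site and condition were removed, the Spearman correlation of miR-429 was 0.93 with miR-183-5p and 0.91 with miR-182. Both were above the 0.86 between miR-183-5p and miR-182, as was that of miR-200b-3p with miR-182 (0.89).

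The injury differences of these miR-200 miRNAs were fitted as for the members, and none passed the threshold. The log2 difference of TBI from sham was 0.24 for miR-429 (SE 0.26, 95% CI -0.30 to 0.77, adjusted p = 0.828), with means of 478 CPM in sham and 572 CPM in TBI rats. It was -0.03 for miR-200a-3p (SE 0.32), -0.14 for miR-200b-3p (SE 0.27) and 0.02 for miR-141-3p (SE 0.24). Whether these differed from the 1.11 of miR-183-5p was not tested. Of the 10 places in these 2 rankings, miR-181c-3p held the 1 called difference, 0.68 higher in TBI (SE 0.17, adjusted p = 0.0367, means of 37.5 and 60.7 CPM). For miR-183-3p the closest miRNA was miR-3065-3p (Spearman 0.75), named after its value was seen.

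The sites were compared because the study harmonized its procedures across them. Differences left included vendor, housing, analgesia, feed, saline, medical oxygen at Monash and antibiotic chow after surgery at UCLA. No member passed the threshold between sites, which does not show that levels were equal. The test over the 3 sites together gave adjusted p-values of 0.969 for miR-183-5p, 0.888 for miR-182, 0.366 for miR-183-3p, 0.762 for miR-96-5p and 0.993 for miR-96-3p, where 14.8% of all miRNAs passed. Between single pairs of sites, 9.99% of miRNAs passed for UEF minus Monash, 9.32% for UEF minus UCLA and 5.46% for Monash minus UCLA, and 0 members passed in any pair. For miR-183-5p the log2 differences were -0.06 (95% CI -0.87 to 0.75), -0.13 (95% CI -0.91 to 0.66) and -0.07 (95% CI -0.93 to 0.80) in that order. miR-183-3p had the widest pair difference of the 4 abundant members, at -0.87 for Monash minus UCLA (SE 0.47, 95% CI -1.82 to 0.08, adjusted p = 0.297).

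The injury difference was also fitted at each site. For miR-183-5p it was 0.75 at UEF (SE 0.54), 1.75 at Monash (SE 0.67) and 1.06 at UCLA (SE 0.64). For miR-182 it was 0.16 (SE 0.52), 0.93 (SE 0.63) and 0.17 (SE 0.60). For miR-96-5p it was 0.27 (SE 0.44), 2.39 (SE 0.61) and 0.43 (SE 0.52), and for miR-183-3p 0.61 (SE 0.59), 0.42 (SE 0.75) and 0.28 (SE 0.67).

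All 4 were positive at every site and none passed the threshold, the lowest adjusted p being 0.109 for miR-96-5p at Monash. Of all miRNAs tested, 3.85% passed at UEF, 0% at Monash and 0.265% at UCLA. Monash had 0 calls in edgeR, with 57 miRNAs at an unadjusted p under 0.05. The difference between sites was tested as an interaction, where 1.06% of miRNAs passed. miR-96-5p had the lowest p among the members (adjusted p = 0.281), and miR-183-5p, miR-182 and miR-183-3p had adjusted p-values of 0.724, 0.799 and 0.969.

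**Figure D4:**
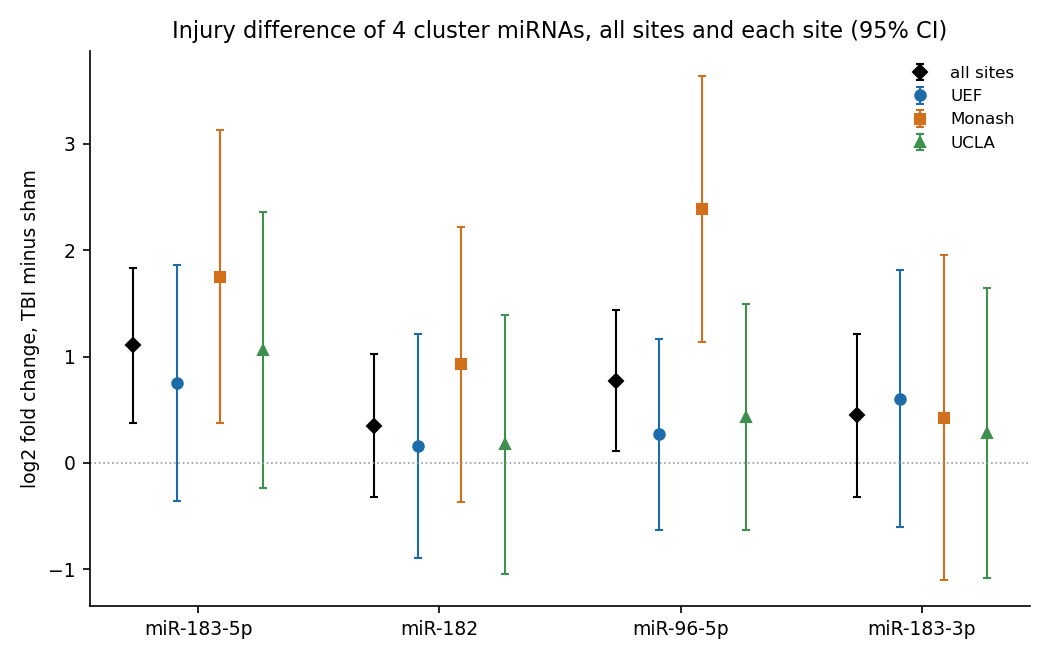
Points are the fitted log2 difference of TBI from sham for 4 members, over all sites (black) and at each site (colors), with 95% confidence intervals. The intervals over all sites lay above 0 for miR-183-5p (0.38 to 1.83) and miR-96-5p (0.11 to 1.44), and among single sites only at Monash, for the same 2 miRNAs.

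Within sites, exact permutation tests on mean log2 CPM gave the same signs. For miR-183-5p, UEF gave a difference of 0.66, Monash 1.35 and UCLA 1.07, with exact p-values of 0.331, 0.125 and 0.0595. The smallest p these designs allow is 0.00202, 0.0179 and 0.0119. On total counts without TMM the UEF difference was 1.17 (exact p = 0.0202) and that at UCLA 0.56 (exact p = 0.226). At UCLA the sign of the other 3 members turned on total counts, to -0.23 for miR-182, -0.091 for miR-96-5p and -0.37 for miR-183-3p. None of the 12 tests passed after adjustment on either scale.

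Other miRNAs of the same plasma were set beside the cluster, where over all 751 miRNAs tested 53.1% had a positive difference between TBI and sham, 5 were called higher and 4 lower. Of the 7 red cell miRNAs listed (stems miR-451, miR-144, miR-486 and miR-16), 7 had a positive and 0 a called difference (median log2 difference 0.40, against 0.03 over all miRNAs tested). Their summed share was 6.83% to 37.2% of counts in sham rats and 22.0% to 43.2% in TBI rats, with none at 0. The medians were 23.2% and 32.7%. The lowest sham share was that of sham rat 3 of UEF, in which liver miRNAs took 58.0% of counts. On TMM-scaled CPM the summed level had medians of 208858 and 322876. The log2 ratio of miR-451-5p to miR-23a-3p, a red cell miRNA against a reference, was 0.71 higher in TBI (permutation p = 0.00726). The study measured this pair by PCR as a check for hemolysis, and those values were not used here. The ratio of counts was not calibrated against hemolysis.

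Over the 29 rats that red cell ratio had a Pearson correlation of -0.42 with the log2 ratio of miR-182 to miR-183-5p (Spearman -0.49, permutation p = 0.0242 and 0.00776, adjusted 0.0519 and 0.0241 over 15 relations), and -0.41 without the 2 farthest rats. By site it was -0.34, -0.13 and -0.73 in UEF, Monash and UCLA. Within conditions it was -0.66 in the 10 sham rats and 0.03 in the 19 TBI rats. With the red cell ratio as a covariate, the log2 difference of TBI from sham was 1.05 for miR-183-5p (SE 0.45, adjusted p = 0.586) and 0.30 for miR-182 (SE 0.42).

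Depth went with the members too. It also differed by condition, with a median total of 2225678 counts in sham and 2855260 counts in TBI rats. log2 total counts had a Pearson correlation of 0.42 with miR-183-5p, 0.52 with miR-182, 0.43 with miR-96-5p and -0.42 with miR-183-3p (permutation p = 0.0221, 0.00367, 0.0202 and 0.0232, adjusted 0.0519, 0.0238, 0.0519 and 0.0519). The ratio of miR-182 to miR-183-5p had 0.02 with it (Spearman 0.03, permutation p = 0.902 and 0.884). Spearman correlations of the 4 members were 0.48, 0.54, 0.34 and -0.43 (adjusted 0.0241, 0.0241, 0.123 and 0.0519), and without the 2 farthest rats Pearson was 0.58, 0.64, 0.45 and -0.47. The relations were strongest at UEF (0.76, 0.87, 0.75 and -0.84) and weak at Monash (0.09, 0.17, 0.18 and -0.26). Within conditions they were 0.61, 0.60, 0.70 and -0.40 in the 10 sham rats and 0.27, 0.46, 0.12 and -0.53 in the 19 TBI rats. The injury differences were not fitted with depth as a term. Pearson correlations with the log2 TMM factor were -0.36, -0.56, -0.19 and 0.51 in the same order. Their adjusted permutation p-values were 0.104, 0.0237, 0.408 and 0.0237.

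The tissues known for the cluster were examined by their other miRNAs, as lists of stems. Of 10 retina and neuroendocrine miRNAs (miR-7a, miR-7b, miR-375, miR-204 and miR-211), 4 had a positive difference between TBI and sham and 0 were called (median -0.04). miR-375-3p, known from pancreatic islets and pituitary, had a log2 difference of 0.27 (SE 0.25) and miR-204-5p, known from retinal pigment epithelium and choroid plexus, -0.66 (SE 0.36, adjusted p = 0.551). Of 12 epithelial miRNAs, 5 were positive and 0 called (median -0.05), and their summed level was 2516 to 18788 CPM in sham and 2399 to 42034 CPM in TBI rats, with none at 0.

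Of 32 brain miRNAs, 25 were positive and 4 were called, all higher in TBI (median 0.24, against 0.03 over all miRNAs tested). The stems were miR-9a, miR-124, miR-128, miR-129, miR-137, miR-138, miR-153, miR-218a, miR-219a, miR-338, miR-132, miR-212, miR-323 and miR-434. Among them, miR-9a, miR-124, miR-132, miR-212, miR-323 and miR-434 were the study's own candidates for PCR. The list was thus not independent of the study. The summed share of the 32 miRNAs was 0.145% to 1.07% of counts in sham rats and 0.682% to 1.46% in TBI rats, with at most 1 at 0 in a rat. The medians were 0.628% and 1.08%, and the lowest sham share was again that of sham rat 3 of UEF. On TMM-scaled CPM the summed level had medians of 5194 and 9932. The 4 of highest level were miR-128-3p, 0.99 higher in TBI (SE 0.23, adjusted p = 0.0187), miR-434-3p, 1.19 higher (SE 0.27, adjusted p = 0.0187), miR-323-5p, at 0.06 (SE 0.23, adjusted p = 0.961) and miR-137-3p, at 0.25 (SE 0.29, adjusted p = 0.833). Of 8 liver miRNAs, 3 were called lower and none had a positive difference (median -1.01). Their summed share was 2.18% to 58.0% in sham rats and 1.07% to 24.5% in TBI rats, with none at 0. miR-122-5p, the main liver miRNA, was 1.65 lower in TBI on the log2 scale (SE 0.42, adjusted p = 0.0379). Its median in sham and TBI rats was 402232 and 50774 CPM at UEF, and 122297 and 65420 CPM at Monash. At UCLA it was 16024 and 16455 CPM, so the lower level in TBI was not shared by that site. The lists of platelet and white cell miRNAs (8) and of muscle miRNAs (12) had 0 calls, with median log2 differences of 0.13 and -0.01, and the study's reference miR-28-3p was at -0.20 (SE 0.21, adjusted p = 0.828). The part of liver, brain and red cell RNA in the levels of the cluster was not tested.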

How the data were processed

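Small RNA was sequenced from 200 μl of tail vein plasma of 29 rats, each at 48 h. Per the labels and the study's methods, the authors had libraries made with the QIASeq miRNA kit, trimmed the reads with cutadapt, aligned them with Bowtie to Rnor_6.0 and took miRNA names from miRBase. Deposited were raw read counts of 754 miRNAs per rat in 1 table. Whether reads with the same molecular identifier were merged is not stated, so counting errors and floors cover counting only. Grouping followed the sample labels.

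The main test was the quasi-likelihood F test of edgeR 4.0.16 under R 4.3.3 (with limma 3.58.1), on miRNAs kept by filterByExpr (at least 10 counts) and scaled by TMM, with site and condition (sham, TBIN, TBIE) as terms. P-values were adjusted by the Benjamini-Hochberg method across the 751 miRNAs tested, and 0.05 was the threshold. The fits at each site and the interaction kept 754. DESeq2 1.42.0, which the study used, was an alternative. CPM are on TMM-scaled totals, and log2 CPM used a prior count of 2. Log2 ratios of counts had 0.5 added to each. Permutation tests were two-sided, exact where a group had under 10 rats and otherwise with 100000 resamples. Scripts were tested on simulated data. Other steps ran in scipy 1.17.1, numpy 2.4.6, pandas 2.3.3 and matplotlib 3.10.9 under Python 3.11.15. Sequences came from RefSeq (GRCr8).

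Alternatives were other scalings, filters, models and left-out rats or sites. Members, lists and the rule for naming miRNAs were chosen with earlier results of these data known. The rule named the members, the 5 miRNAs most like miR-183-5p and miR-182 by Spearman correlation, table miRNAs sharing bases 2 to 7 with a member, miR-28-3p, miR-451-5p, miR-23a-3p and miR-122-5p, and at most 4 miRNAs of each list.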

Additional observations from a re-analysis of the deposited data

Results flagged for a closer look

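The log2 ratio of miR-183-5p to miR-183-3p in TBIE rat 4 of UEF was 2.09, from 512 and 120 reads, against 4.68 in the next lowest of the 9 TBIE rats. The gap was 0.539 of the range of the group, above Dixon's 95% critical value of 0.493. It was the only 1 of 56 groups of values marked in this way, and chance marks about 1 in 20. This rat also had the highest TMM factor (1.76), which lowers every CPM of it, and the lowest miR-182 (106 CPM). On total counts its miR-182 was not the lowest, at 186 CPM against 154 CPM in sham rat 4 of UEF. Without it the log2 difference of TBIE from sham for miR-183-3p was -0.03 in place of 0.38.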

How the results depend on the processing

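Over 34 results, 893 of 913 alternative values kept the direction and the side of the threshold. Most of these results did not pass in the main test, and most alternatives left out a single rat. The count thus mostly covers values that stayed short of the threshold. The log2 difference of TBI from sham kept its sign for miR-183-5p, miR-182, miR-96-5p and miR-183-3p under all settings run. DESeq2 put miR-183-5p past the threshold (1.07, adjusted p = 0.0446); the cause was not tested. With each rat left out in turn it ran from 0.95 to 1.30 for miR-183-5p, 0.64 to 0.99 for miR-96-5p, 0.18 to 0.60 for miR-182 and 0.24 to 0.58 for miR-183-3p.

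Signs turned mainly for TBIE against TBIN, where no value passed and the cause was not tested. Without the UEF rats the difference was 0.30 for miR-183-5p and 0.17 for miR-182. For miR-183-3p it was 0.0072 on total counts, 0.12 normalized to miR-28-3p, 0.045 on thinned counts and 0.18 without the UCLA rats. With each rat left out in turn it ran from -0.53 to 0.087 for miR-183-5p, -0.54 to 0.20 for miR-183-3p and -0.63 to 0.0022 for miR-96-5p. For TBIE against sham, miR-182 was at -0.031 without the Monash rats, and with each rat left out miR-182 ran from -0.016 to 0.39 and miR-183-3p from -0.028 to 0.57. The log2 ratio of miR-96-5p to miR-183-5p ran from -0.31 to 0.021 for TBI minus sham. Within UCLA on total counts, the TBI differences were -0.37 for miR-183-3p, -0.091 for miR-96-5p and -0.23 for miR-182.

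The count of called miRNAs for TBI against sham, 9 in the main test, was 25 with DESeq2, 14 with no site term, 4 with the red cell ratio as a covariate, 21 without the Monash rats, 14 without the UCLA rats and 0 without the UEF rats (edgeR, 30 at an unadjusted p under 0.05). It ran from 1 (without sham rat 4 of UEF) to 16 (without sham rat 2 of Monash) with each rat left out.

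Replicate numbers did not pair the samples: residuals of 28 pairs with the same number at a site had a mean correlation of -0.03 (from -0.42 to 0.40), against 0.01 for 68 pairs with different numbers. With the number as a replicate block, 4 miRNAs were called, and the log2 differences were 1.03 for miR-183-5p (adjusted p = 0.260), 0.43 for miR-183-3p, 0.69 for miR-96-5p and 0.38 for miR-182. Depth limits miR-96-5p (2 to 139 reads a rat), miR-183-3p (8 to 120 reads a rat) and miR-96-3p most.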
